A study of Xenopus laevis with 6 samples.

Results

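The genes described here are the globins of Xenopus laevis, the African clawed frog, and 3 erythroid genes, read in libraries of testis. The rule took hbg1.L and gata1.L by name, every gene whose description holds the word globin, and the genes alas2 and slc4a1. It found 37 rows among the 31598 rows of the mRNA table. Of these, 24 were haemoglobin subunits, 7 were other globins and 4 belonged to erythroid genes. The remaining 2 rows, jup.L and jup.S, encode junction plakoglobin, a protein of cell contacts that is no globin and matched by its letters only. One immunoglobulin row whose description is spelt without its usual letters was left out.

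Haemoglobin carries oxygen in red blood cells and is built from alpha-type and beta-type chains, and frogs change their set of chains from larval to adult forms at metamorphosis. Frog red cells keep their nucleus and circulate with mRNA, so globin transcripts reach the RNA of any tissue that holds blood. X. laevis is an allotetraploid with paired chromosome sets named L and S, and the letters close its gene symbols. In the mouse, the red cell transcription factor GATA1 is also made by Sertoli cells of the testis.

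Both groups held 3 libraries of whole testis, taken at postnatal day 193. The herbicide atrazine had been given to the atrazine group at 100 µg/L over 180 days, and control animals had received none. No strain is named in the labels. They leave unsaid how many animals a library holds, so the spread between libraries, against which p-values weigh a difference, may be partly technical. Libraries were stranded and made from rRNA-depleted total RNA.

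The mRNA table rested on an estimated 7360619 to 15393415 reads in the atrazine libraries and 13784627 to 17018696 reads in the control libraries, and atrazine replicate 3 was the smallest. Testis genes were abundant in every library. The germ cell gene ddx4.L was read at 419, 363 and 325 FPKM in atrazine testes, against 424, 263 and 333 FPKM in control testes. FPKM is a fragment count scaled to transcript length and to the size of the library. With limma at an adjusted p under 0.05, 0 of the 23824 rows tested were called and 1410 had an unadjusted p under 0.05.

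Haemoglobin was present in every library, and its summed level over the 24 rows differed 4.73-fold between the highest and the lowest library. Of the 24 haemoglobin rows, hbg1.L and hba1.S carried nearly all the signal. Another 3 globin rows of haemoglobin type fell outside the rule because their descriptions are blank or say uncharacterized. LOC108702027 bears the gene number that the v10.1 annotation calls hba1.L, MGC130918 is hbz.L there, and hbg2-a is a gamma-type globin by the name the file gives it. They are given beside the members and are not counted among them.

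The most abundant globin was hbg1.L, a beta-type chain named as a gamma subunit, at 9_10L:85888007-85889624 on the plus strand. Its level was 120.4, 186 and 128 FPKM in atrazine replicates 1, 2 and 3, against 244, 614 and 219.6 FPKM in control replicates 1, 2 and 3. All 3 atrazine values lay below all 3 control values, and control replicate 2 stood far above the other libraries. The group means were 145 ± 36.1 FPKM in atrazine testes and 359 ± 221 FPKM in control testes (SD, n = 3 each). The difference on the log2(FPKM + 1) scale was -1.17 with a standard error of 0.36 and a 95% confidence interval of -1.999 to -0.337 (limma). It did not pass the test across all rows, with a limma p of 0.0116 and a Benjamini-Hochberg adjusted p of 0.693. An exact two-sided permutation test over the 6 libraries gave p = 0.1, the smallest that 20 assignments allow. Without control replicate 2 the difference was -0.70 with a standard error of 0.19 (limma p of 0.00747, adjusted p of 0.997).

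The alpha-type row next to it, LOC108702027 at 9_10L:85879042-85880143, was nearly as abundant. It had 101.2, 185 and 96.3 FPKM in atrazine testes, against 224, 537 and 152 FPKM in control testes. The groups overlapped, since atrazine replicate 2 lay above control replicate 3. The difference was -1.11 ± 0.43 (standard error), with a limma p of 0.0327 and an adjusted p of 0.693, and it was -0.60 without control replicate 2.

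The S chromosome carried a weaker pair. The alpha-type hba1.S at 9_10S:77196372-77197452 had 13.7, 26.7 and 13.1 FPKM in atrazine testes, against 37.4, 68.5 and 13.7 FPKM in control testes. The beta-type row beside it, hbg2-a at 9_10S:77206693-77208917, had 8.01, 22.6 and 9.58 FPKM in atrazine testes, against 22.4, 46.1 and 14.4 FPKM in control testes. Both rows overlapped between groups and both were highest in control replicate 2. The differences were -0.92 ± 0.51 for hba1.S and -0.97 ± 0.45 for hbg2-a (standard errors, limma adjusted p of 0.693 for each). Without control replicate 2 they were -0.41 for hba1.S and -0.54 for hbg2-a. In order of level per length, hbg1.L and LOC108702027 came first, and their group ranges overlap each other in both groups. The rows hba1.S and hbg2-a followed well below them and overlap each other likewise.

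**Figure D1:**
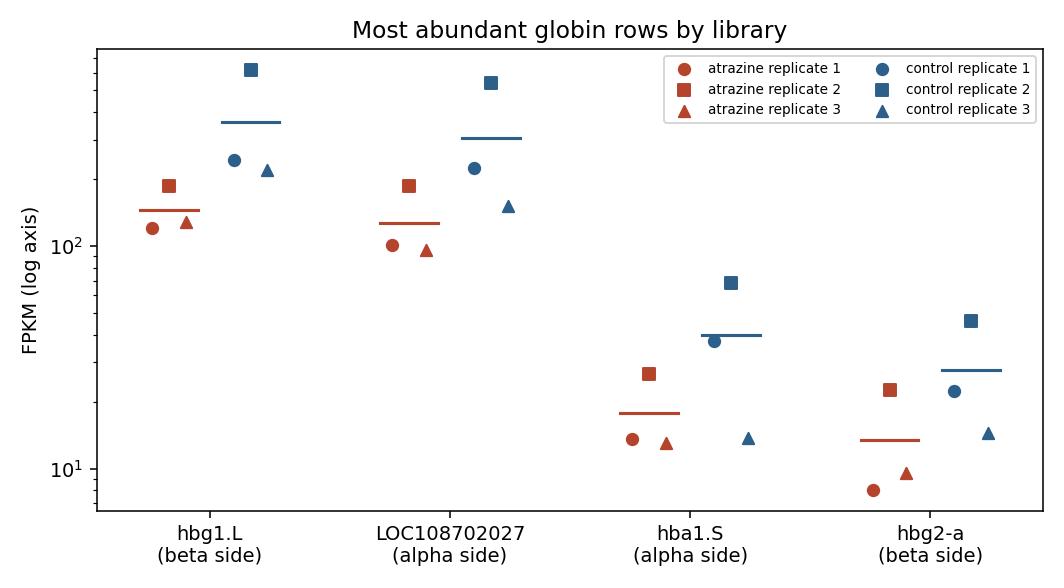
FPKM of the 4 most abundant globin rows on a log axis, with atrazine libraries in red on the left of each pair and control libraries in blue on the right, a marker shape for each replicate number and a bar at the group mean (n = 3 each). The square of control replicate 2 is the highest value in each row, at 614 FPKM for hbg1.L, and the square of atrazine replicate 2 is the highest atrazine value in each row.

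The other haemoglobin rows were close to silent. Among the 22 haemoglobin rows other than hbg1.L and hba1.S, 18 had a mean under 1 FPKM, 16 were listed at 0 in at least 1 library and LOC108702419 was listed at 0 in all 6. Their highest value was 6.66 FPKM, for hba2.L in control replicate 1. Summed over the 22 rows, the level was 13.0, 15.0 and 11.1 FPKM in atrazine testes, against 15.3, 12.5 and 10.9 FPKM in control testes. These sums overlapped between groups and did not follow hbg1.L: in control replicate 2, where hbg1.L was highest, they stood at 12.5 FPKM. The set includes the rows named for epsilon, zeta and delta chains, hbe1.L, hbz and hbd.S, of which hbd.S had the highest single value, at 0.492 FPKM in control replicate 3.

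Among these weak rows, hba2.L was the most abundant, with 3.96, 5.71 and 3.05 FPKM in atrazine testes, against 6.66, 2.45 and 3.54 FPKM in control testes. The row hba3.L had 0.931, 1.32 and 1.83 FPKM in atrazine testes, against 0.899, 1.75 and 0.5001 FPKM in control testes. Neither separated the groups. MGC130918, the hbz.L of the v10.1 annotation, had 4.42, 1.88 and 5.22 FPKM in atrazine testes, against 2.66, 5.07 and 3.32 FPKM in control testes, and its groups overlapped too.

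A pair of weak alpha-type rows separated the groups, in opposite directions and on few reads; over all rows tested, 11.3% had groups that did not overlap. LOC108701878 had 0.517, 0.490 and 1.02 FPKM in atrazine testes, against 2.00, 2.10 and 2.83 FPKM in control testes. That is an estimated 2, 2 and 2 reads in the atrazine libraries and 9, 9 and 10 reads in the control libraries. Its difference was -0.99 ± 0.18 (standard error), with a limma p of 0.000452 and an adjusted p of 0.693. LOC108701877, the globin row just before it on 9_10L, had 0.872, 1.24 and 1.72 FPKM in atrazine testes, against 0.754, 0.404 and 0 FPKM in control testes. At 0 to 3 estimated reads per library, its difference of 0.74 ± 0.23 (standard error, limma adjusted p of 0.693) rests on counts too low to place it firmly.

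**Figure D2:**
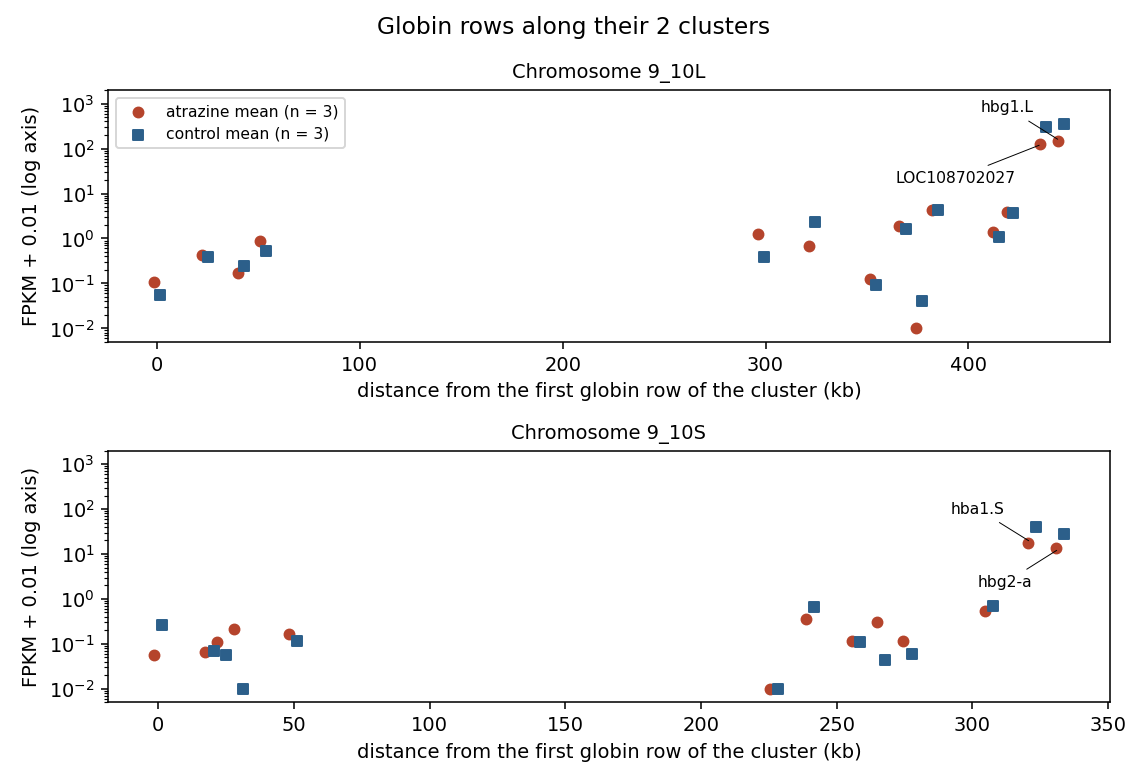
Mean FPKM plus 0.01 on a log axis for the globin rows of chromosome 9_10L (top) and 9_10S (bottom), at their distance in kilobases from the first of them, with atrazine means as red circles drawn just left of the control means as blue squares (n = 3 each). The last rows of each cluster, LOC108702027 and hbg1.L on 9_10L and hba1.S and hbg2-a on 9_10S, stand above all other rows of their cluster in both groups.

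All 24 haemoglobin rows lay in 2 clusters, with 12 rows on 9_10L and 12 on 9_10S. With the 3 further rows, the first cluster ran from 9_10L:85442387 to 85889624, over 447 kb, and the second from 9_10S:76874476 to 77208917, over 334 kb. Position and level went together in both: the abundant pair closed each cluster at its high-coordinate end. The suffix of a symbol did not always match its chromosome. The row named hbg2.S lies on 9_10L and is hbg2.L in the v10.1 annotation, and the rows named hba4.L and cygb.L lie on 9_10S and are hba4.S and cygb.S there.

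Genes between and beside the globins had smaller differences than the 4 abundant globin rows. Of the 12 rows flanking the clusters, 3 on each side of each, the 10 tested had differences between -0.50 and 0.24. Groups did not overlap in 11.3% of all rows tested, and among these 10 only in mrpl28.L, a mitochondrial ribosomal protein gene. Its level was 33.9, 34.3 and 35.3 FPKM in atrazine testes, against 33.1, 26.9 and 29.4 FPKM in control testes. The 8 tested rows of other genes inside the clusters had differences between -0.51 and 0.25, and 0 of them separated the groups. One is nprl3.L, a gene whose introns hold globin enhancers in mammals, with 10.99, 10.8 and 13.0 FPKM in atrazine testes, against 10.9, 11.1 and 10.6 FPKM in control testes.

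Summed over the 24 haemoglobin rows, the level was 147, 228 and 152 FPKM in atrazine testes, against 297, 695 and 244 FPKM in control testes. The lowest control sum was above the highest atrazine sum, by a small margin between control replicate 3 and atrazine replicate 2. The log2 ratio of the group means was -1.23, and no test was run on a sum over chosen rows. It was -0.62 without control replicate 2 and -0.77 without hbg1.L, which made up 81.7% to 84.1% of the sum in atrazine testes and 82.2% to 89.9% in control testes. With the 3 further rows added, the sums were 261, 438 and 263 FPKM in atrazine testes, against 546, 1284 and 414 FPKM in control testes. They then overlapped, because atrazine replicate 2 exceeded control replicate 3.

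In reads, globin was a small part of every library. The 27 rows took 1647, 2904 and 844 estimated reads in atrazine testes, against 3987, 9079 and 2406 in control testes. That is 0.0113%, 0.0189% and 0.0115% of the mRNA table's reads in atrazine testes, against 0.0234%, 0.0539% and 0.0175% in control testes. The 95% Wilson intervals ran from 0.0107% to 0.0196% over the atrazine libraries and from 0.0168% to 0.0550% over the control libraries, and they cover counting error only. The shares overlapped between groups, since atrazine replicate 2 (interval 0.0182% to 0.0196%) lay above control replicate 3 (0.0168% to 0.0182%). Where a bulk library holds less globin RNA, fewer red cells and less globin RNA per cell cannot be told apart. Ranked by FPKM among all rows, hbg1.L was number 591, 342 and 501 in atrazine testes, against 277, 121 and 292 in control testes.

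The ratio of alpha-type to beta-type level varied 1.43-fold between libraries over the 4 abundant rows, while their sum varied 5.20-fold. Over the 4 abundant rows, alpha over beta FPKM was 0.894, 1.01 and 0.796 in atrazine testes, against 0.982, 0.917 and 0.708 in control testes. For the L pair alone it averaged 0.862 ± 0.121 in atrazine testes and 0.828 ± 0.120 in control testes (SD, n = 3 each). The S pair leaned to alpha, at 1.42 ± 0.27 in atrazine testes and 1.37 ± 0.37 in control testes (SD, n = 3 each). The L copy supplied 87.4% to 88.1% of the alpha level in atrazine testes and 85.7% to 91.7% in control testes. Of the beta level it supplied 89.2% to 93.8% in atrazine testes and 91.6% to 93.8% in control testes. The ratio and both shares overlapped between groups. L and S copies can share reads, and the labels and headers do not say how the authors placed them.

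**Figure D3:**
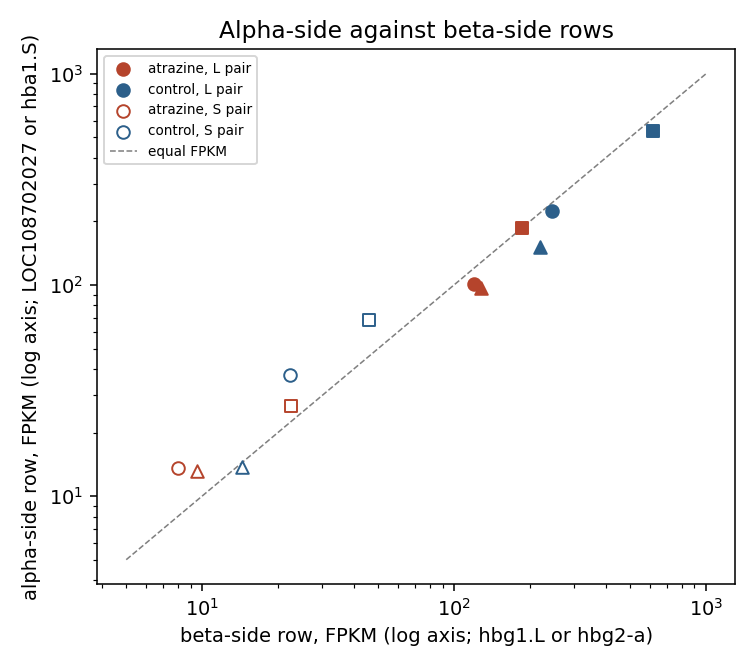
FPKM of the alpha-type row against the beta-type row of the same chromosome, both on log axes, for 3 atrazine libraries (red) and 3 control libraries (blue), with filled markers for the L pair and open markers for the S pair. Points run along the dashed line of equal level, a little below it for the L pair (0.862 in atrazine testes and 0.828 in control testes on average) and mostly above it for the S pair.

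The erythroid genes were read at low levels and did not all follow the globins. The gene slc4a1.L encodes band 3, the anion exchanger of the red cell membrane. It had 0.329, 0.843 and 0.517 FPKM in atrazine testes, against 0.693, 1.15 and 0.703 FPKM in control testes, and the groups overlapped through atrazine replicate 2. Its libraries stood in a similar order to those of hbg1.L, with a Pearson r of 0.90 over the 6 libraries on 16 to 82 estimated reads each. The v10.1 annotation gives the name slc4a1.S to LOC108702537, which the rule did not take. That row had 0.353, 0.526 and 0.564 FPKM in atrazine testes, against 0.577, 0.926 and 0.748 FPKM in control testes. Its groups did not overlap, as in 11.3% of all rows tested (difference -0.24 ± 0.15, standard error, limma p of 0.141, adjusted p of 0.693). The gene alas2 encodes the red cell form of the first enzyme of heme synthesis. The main row the file names alas2.S had 0.951, 0.164 and 0 FPKM in atrazine testes, against 0.445, 1.90 and 0.832 FPKM in control testes. That is 11, 2 and 0 estimated reads in atrazine testes, against 6, 25 and 9 in control testes. Its Pearson r with hbg1.L was 0.69. The v10.1 annotation gives the name alas2.S to another row, LOC495283, which the rule did not take. It had 0.358, 0.442 and 0.956 FPKM in atrazine testes, against 0.494, 0.549 and 0.496 FPKM in control testes, with overlapping groups, and was too low to be tested. The second row under the deposited name, alas2.S_2, was listed at 0 in all atrazine libraries and in control replicate 3, and at 1 estimated read in each of control replicates 1 and 2. The differences were -0.25 ± 0.18 for slc4a1.L and -0.59 ± 0.31 for alas2.S (standard errors, limma adjusted p of 0.704 and 0.693).

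The transcription factor gene gata1.L, at 8L:695580-703971, varied more than the abundant globins. Its level was 6.33, 1.13 and 6.73 FPKM in atrazine replicates 1, 2 and 3, against 3.92, 26.1 and 9.98 FPKM in control replicates 1, 2 and 3. It was lowest in atrazine replicate 2, the atrazine library with the most hbg1.L, and highest in control replicate 2, and the groups overlapped. The means were 4.73 ± 3.12 FPKM in atrazine testes and 13.3 ± 11.5 FPKM in control testes (SD, n = 3 each). The difference was -1.20 with a 95% confidence interval of -2.70 to 0.30 (limma p of 0.102, adjusted p of 0.693), and it was -0.57 without control replicate 2. These values rest on 30 to 159 estimated reads in the atrazine libraries and 115 to 755 in the control libraries. The other copy, gata1.S, lay outside the rule and was too low to be tested. It had 0.238, 0.449 and 0.115 FPKM in atrazine testes, against 0.362, 0.734 and 0.321 FPKM in control testes. Unlike gata1.L, it was highest in replicate 2 of both groups, as hbg1.L was.

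Among rows with a mean of at least 1 FPKM, 21377 were compared with each gene by Pearson r over the 6 libraries, as a description on points that share their libraries. LOC108702027 was number 4 in likeness to hbg1.L (r = 0.98), hbg2-a was number 47 (r = 0.93) and hba1.S number 198 (r = 0.89). The rows with a symbol and outside the rule that were most like hbg1.L were pelo.L, gnl3.L, pggt1b.S, slc39a9.S and mef2d.S, with r of 0.97 to 0.98. They vary far less than hbg1.L. The nearest, pelo.L, had 44.6, 55.6 and 49.9 FPKM in atrazine testes, against 62.8, 81.0 and 59.5 FPKM in control testes.

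The row gata1.L stood at number 2691 in likeness to hbg1.L (r = 0.60). The rows with a symbol most like gata1.L itself, a comparison added after the values were seen, were desi2.L, fsip1.L, sypl1.L, tldc1.L and nin.L, with r of 0.994 to 0.999 and ranks from 1 to 13, and rows named only by LOC number held ranks 2 to 5. The first of these, desi2.L, had 180.7, 112 and 175 FPKM in atrazine testes, against 152, 291 and 206 FPKM in control testes. It was lowest in atrazine replicate 2 and highest in control replicate 2, as gata1.L was. High r with gata1.L was common over these 6 libraries, so the rank among the 21377 rows is given beside it. The gene kctd18.L inside the L globin cluster ran with gata1.L (r = 0.97, number 204) rather than with hbg1.L (r = 0.61). The sperm flagellum gene tekt1.L had r of 0.93 with gata1.L (number 863) and 0.52 with hbg1.L. Other germ cell genes differed in their r with gata1.L, at 0.88 for sycp3.L (number 1434), 0.78 for dazl.L (number 2506) and -0.69 for ddx4.L (number 15283). Rows listed for Sertoli cells differed too, at 0.95 for dmrt1.S (number 596), 0.86 for sox9.L (number 1751), 0.39 for sox9.S (number 5618) and -0.39 for dmrt1.L (number 11508). Which cells gave the gata1.L reads was not tested.

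**Figure D4:**
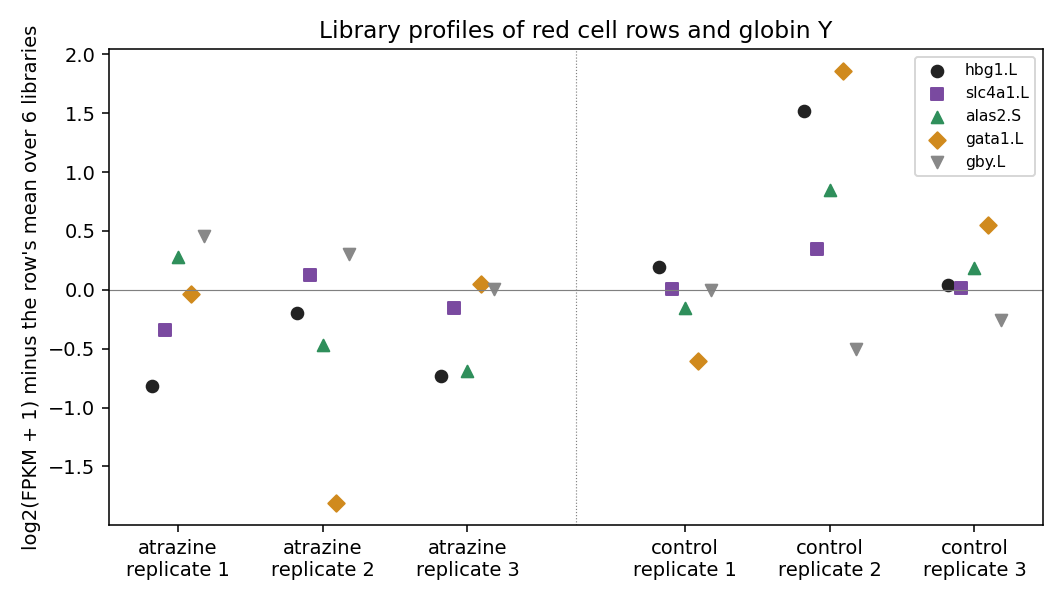
Level of hbg1.L, slc4a1.L, alas2.S, gata1.L and gby.L in each library on the log2(FPKM + 1) scale, less the mean of that row over the 6 libraries, with the 3 atrazine libraries on the left and the 3 control libraries on the right. The rows hbg1.L and gata1.L are both highest in control replicate 2, while in atrazine replicate 2 gata1.L is at its lowest, at 1.13 FPKM; gby.L runs the other way from hbg1.L.

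Of the 7 member globins outside haemoglobin, 5 passed the filter on low values. Globin Y, a globin whose role is not settled and whose gene lies just before the haemoglobins on 9_10L, was the one that separated the groups. Among all rows tested, 11.3% did so, and 6.63% did so with higher atrazine values. The row gby.L, at 9_10L:85419049-85438210, had 34.4, 30.7 and 24.9 FPKM in atrazine testes, against 24.7, 17.2 and 20.6 FPKM in control testes. All atrazine values lay above all control values, although the gap between atrazine replicate 3 and control replicate 1 was small. The means were 30.0 ± 4.79 FPKM in atrazine testes and 20.8 ± 3.76 FPKM in control testes (SD, n = 3 each). The difference of 0.51 (95% confidence interval 0.12 to 0.90) had a limma p of 0.0155 and an adjusted p of 0.693, and the exact permutation p was 0.1, its smallest value. Its r with hbg1.L was -0.82 over the 6 libraries.

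Androglobin is a large globin-like protein made mainly in the testis and in ciliated cells of mammals. Its row, LOC108716692 at 5L:49001094-49123662, had 29.7, 20.4 and 28.3 FPKM in atrazine testes, against 26.7, 36.5 and 36.3 FPKM in control testes. The groups overlapped (difference -0.34 ± 0.18, standard error, limma adjusted p of 0.693). The row followed gata1.L (r = 0.94, number 704 of 21377 in likeness) more than hbg1.L (r = 0.45). Neuroglobin, a globin of nerve cells, had 1.68, 2.24 and 2.30 FPKM for ngb.L in atrazine testes, against 2.20, 2.56 and 2.36 FPKM in control testes. Cytoglobin, a globin of many connective tissue cells, had 1.18, 2.05 and 2.09 FPKM for cygb.L in atrazine testes, against 2.12, 2.19 and 1.7999 FPKM in control testes. Neither separated the groups. The cytoglobin-like rows LOC108701133 and LOC108703091 stayed at or under 1.15 and 0.612 FPKM, and the myoglobin-like LOC108699250 at or under 0.171 FPKM. A second neuroglobin copy, LOC108700489, is ngb.S in the v10.1 annotation and was not taken by the rule. It stayed at or under 0.695 FPKM and was too low to be tested.

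Across all members, 20 of the 37 rows passed the filter on low values, and the rest include 14 haemoglobin rows. At an adjusted p under 0.05, limma called 0 of the 20, and the share called over all rows tested was 0%. An unadjusted p under 0.05 was reached by 4 of the 20, against 5.92% of all rows, and the 4 were hbg1.L and LOC108701878 on the lower side (2.59% of all rows) and LOC108701877 and gby.L on the higher side (3.32%). The groups did not overlap in these same 4 rows, 2 lower and 2 higher in atrazine testes, against 4.66% of all rows lower and 6.63% higher. Their directions are split, and the pair of LOC rows rests on 10 or fewer estimated reads per library. Of the 20 rows, 14 had a negative and 6 a positive difference, with a median of -0.14, beside a median of 0.04 over all rows tested. The letter matches jup.L and jup.S had differences of -0.13 ± 0.11 and -0.22 ± 0.15 (standard errors, limma adjusted p of 0.732 and 0.696).

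**Figure D5:**
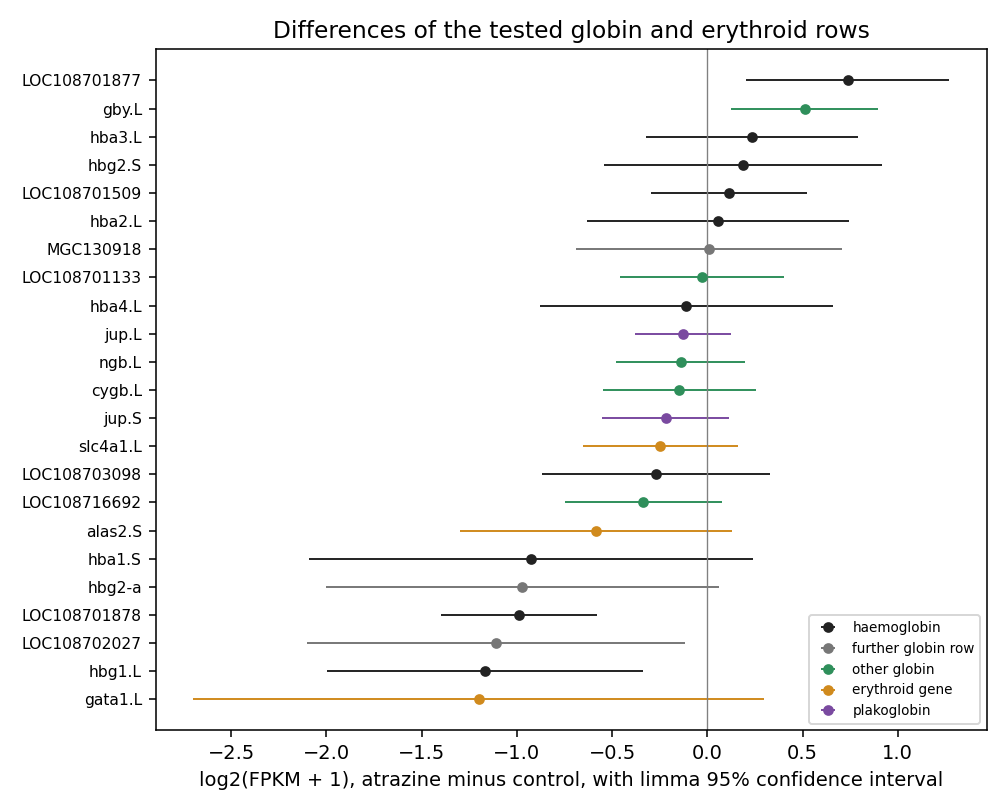
Difference in log2(FPKM + 1), atrazine minus control, with the limma 95% confidence interval, for the 20 tested members and the 3 further globin rows, coloured by kind and ordered from the highest difference at the top to the lowest at the bottom. The intervals of hbg1.L, LOC108702027 and LOC108701878 lie below 0 and those of LOC108701877 and gby.L above it, and the adjusted p is 0.693 for each of these 5 rows.

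Lists of other red cell genes and of other blood and vessel cells were read beside the globins. Of the heme synthesis genes, 8 rows were tested, 4 with a positive and 4 with a negative difference, with a median of -0.01, and with v10.1 symbols for rows named by LOC number 11 rows were tested, 7 positive and 4 negative, with a median of 0.10. The row alas1.S, the form of the first enzyme made in all cells, had 26.3, 26.2 and 21.9 FPKM in atrazine testes, against 26.4, 17.03 and 21.1 FPKM in control testes, well above alas2.S per length. Of 7 rows of erythroid transcription factors, 2 differences were positive and 5 negative, with a median of -0.12; with v10.1 symbols 5 of 10 were positive and 5 negative, with a median of 0.03. Of 6 rows of red cell membrane and skeleton genes, 1 was positive and 5 were negative, with a median of -0.17, and with v10.1 symbols 1 was positive and 9 were negative, with a median of -0.22. The deposited symbols held 4 tested rows of iron uptake and heme transport genes, 0 positive and 4 negative, with a median of -0.18. With v10.1 symbols the list had 15 tested rows, 9 positive and 6 negative, with a median of 0.07, so its lean depended on the naming. In it LOC108718059, the transferrin receptor tfrc.S of v10.1, had 24.8, 24.1 and 21.8 FPKM in atrazine testes, against 20.7, 13.5 and 16.5 FPKM in control testes, without overlap (limma p of 0.0172, adjusted p of 0.693). Limma called 0 rows of these 4 lists at an adjusted p under 0.05 under either naming. At an unadjusted p under 0.05 there were 0 with the deposited symbols and 1, tfrc.S, with v10.1 symbols. Over all rows tested, 5.92% reached that p, and in 11.3% the groups did not overlap, as in tfrc.S. The lists share alas2.S, gata1.L and slc4a1.L with the members.

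Of 5 rows of other red cell genes, 3 differences were positive and 2 negative, with a median of 0.08. One of them, blvrb.L, a biliverdin reductase, separated the groups, with 5.62, 5.47 and 6.43 FPKM in atrazine testes, against 6.61, 11.7 and 7.80 FPKM in control testes. Its difference was -0.47 ± 0.20 (standard error), with a limma p of 0.0421 and an adjusted p of 0.693. Its r with hbg1.L was 0.90. Over all rows tested, 11.3% had groups that did not overlap. The most abundant row of this list, prdx2.S, had 161.8, 170.6 and 157.8 FPKM in atrazine testes, against 182.0, 110.8 and 135.4 FPKM in control testes. Its groups overlapped, and it was lowest in control replicate 2, where hbg1.L was highest (difference 0.22 ± 0.17, standard error, limma adjusted p of 0.713).

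Lists of the other cells that blood and vessels bring held differences of both signs. Of 9 leukocyte rows tested, 3 had a positive and 6 a negative difference, and the summed level of the list ran from 28.9 to 41.0 FPKM in atrazine testes and from 31.7 to 45.0 FPKM in control testes. Among them csf3r.L, the receptor for a granulocyte growth factor, had 0.901, 0.822 and 0.932 FPKM in atrazine testes, against 1.35, 1.55 and 1.46 FPKM in control testes. The chemokine receptor cxcr4.L had 1.19, 1.71 and 1.51 FPKM in atrazine testes, against 1.07, 0.606 and 0.777 FPKM in control testes. These separated the groups in opposite directions, and coro1a.L separated them with lower atrazine values as well (limma adjusted p of 0.693 for each). Over all rows tested, 11.3% had groups that did not overlap. Of the 9 leukocyte rows, 3 had an unadjusted limma p under 0.05, against 5.92% of all rows. The myeloperoxidase row mpo.L, named after its values were seen, had 0.387, 1.83 and 0.410 FPKM in atrazine testes, against 4.79, 2.64 and 1.30 FPKM in control testes. Its groups overlapped, and its difference was -1.04 ± 0.38 (standard error, limma p of 0.0231, adjusted p of 0.693). Named by v10.1, the leukocyte list had 14 tested rows, 5 positive and 9 negative. The summed level of the endothelial list ran from 13.7 to 17.1 FPKM in atrazine testes and from 11.4 to 24.02 FPKM in control testes, with 2 positive and 2 negative differences. With v10.1 symbols, which raised the tested rows of this list to 14, the sum ran from 46.4 to 53.1 FPKM in atrazine testes and from 41.2 to 46.4 FPKM in control testes, with 8 positive and 6 negative differences. For the thrombocyte list the range was 4.72 to 6.33 FPKM in atrazine testes and 5.01 to 5.24 FPKM in control testes.

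The list of 3 genes of steroid-making Leydig cells had 3 negative differences, of which limma called 0 at an adjusted p under 0.05. An unadjusted p under 0.05 was reached by 2 of the 3, against 5.92% of all rows. It summed to 112 to 225 FPKM in atrazine testes and 242 to 258 FPKM in control testes, and cyp17a1.L, the most abundant, overlapped between groups. Among them star had 23.9, 47.5 and 29.3 FPKM in atrazine testes, against 64.3, 72.9 and 63.2 FPKM in control testes (limma adjusted p of 0.693). The row hsd3b1.L had 21.9, 28.2 and 26.8 FPKM in atrazine testes, against 48.1, 42.1 and 38.1 FPKM in control testes (limma p of 0.000777, adjusted p of 0.693). Both rows separated the groups, as did 11.3% of all rows tested. The part of Leydig cell content in the globin levels was not tested.

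Circular RNAs, closed rings read through their back-splice junctions, numbered 52 for the member rows among 68575 in that table, and 42 of the 52 were read in 1 library only. One was read in all 6 libraries. It is assigned to hba3.L and spans 9_10L:85858236-85862849 on the plus strand. It starts inside hba3.L and ends past that gene, which closes at 85860068, inside the first bases of MGC130918, which opens at 85862658. Both ends thus lie in globin rows, and whether its junction reads come from a closed ring was not tested. It had 6, 7 and 7 junction reads in atrazine testes, against 12, 17 and 18 in control testes. In CPM, junction reads scaled to all junction reads of the library, that was 94.3, 134 and 189 in atrazine testes, against 173, 197 and 294 in control testes, and scaled this way the groups overlapped. The edgeR quasi-likelihood test scaled libraries otherwise, by the reads of the circular RNAs tested and by trimmed-mean (TMM) factors. Its difference was -0.93 on the log2 scale, with an edgeR p of 0.171 and an adjusted p of 0.998. At an adjusted p under 0.05, edgeR called 0 of the 6592 circular RNAs tested (0%), and 6.19% had an unadjusted p under 0.05.

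By a different count of the same libraries, the mRNA table holds an estimated 8, 12 and 8 reads of hba3.L in atrazine testes, against 9, 17 and 4 in control testes. For MGC130918 it holds 40, 18 and 24 reads in atrazine testes, against 28, 52 and 28 in control testes. The abundant globin hbg1.L had no ring on its own strand in the table. An antisense ring at 9_10L:85889452-85889626 was read 8 times in control replicate 1 and in no other library. Androglobin gave 35 rings with 137 junction reads in all, and none of them was read in more than 4 libraries. The band 3 gene slc4a1.L gave 2 rings with 6 reads. No long non-coding RNA of that table overlapped either haemoglobin cluster, and 2 rows, both of 1 transcript, were tied to a member. It is an antisense transcript in an intron of LOC108703091 and reached 0.106 FPKM in atrazine replicate 1 and was listed at 0 elsewhere.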

How the data were processed

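Per the labels' protocols, Trizol RNA from frozen testes was depleted of rRNA and made into stranded libraries. The submitters' processing notes name CASAVA 1.8, Bowtie2 and HISAT2. No quantifier, annotation or build is named there. The mRNA and lncRNA tables hold FPKM values, per the file headers. Beside them the authors deposited a signal headed as counts that is not whole. Of its values, 99.76% or more per library are whole multiples of 1 step (tolerance 0.02), from which reads were estimated, and no count model was run on it. The circRNA table holds deposited junction counts. Its deposited log2 values were not used. Control columns there carry a shorter name than the labels and were matched by replicate number. Wilson intervals on read shares cover counting error only, and PCR copies cannot be told from separate molecules. The limma intervals rest on the spread between libraries.

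The mRNAs were tested with limma 3.58.1 (R 4.3.3, eBayes with trend, two-sided, group as the only term) on log2(FPKM + 1), which understates changes of low rows, for rows reaching 0.5 FPKM in 3 or more libraries. P-values were adjusted over all rows tested by Benjamini and Hochberg's method. The circRNAs reaching 2 reads in 3 or more libraries were tested with edgeR 4.0.16 with TMM scaling, a test added after the data were seen. The steps were tested on simulated data. Coordinates are the files', counted from 1, and v10.1 RefSeq annotation gave names only. The members and lists were chosen with earlier results of these data known. Named beyond the members were the 5 rows with a symbol most like hbg1.L, per list the 2 most abundant rows and those with the smallest p in each direction (some of these are not printed), and rows beside the clusters. The rings, kctd18.L, nprl3.L and the further likeness values were chosen after their values were seen. The labels do not say whether libraries with the same replicate number share anything.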

Additional observations from a re-analysis of the deposited data

How the results depend on the processing

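The settings tried were a pseudocount of 0.1, no filter, median-of-ratios scaling, the signal in place of FPKM, limma without trend, a replicate block and each library left out. The count of called mRNAs was 0 in the main fit, 1 with the signal in place of FPKM, and between 0 and 5 with a library left out, with 5 without control replicate 1; the cause was not tested. No member row was called in any of these settings, and no row of any list either, with deposited or v10.1 symbols (the testis lists and the v10.1 names under each setting were added after the data were seen). For hbg1.L the difference ran from -1.44 to -0.70 and the adjusted p from 0.169 to 0.999. The summed haemoglobin log2 ratio ran from -1.50 to -0.62 over the libraries left out. By their correlations (0.03, -0.37 and -0.04 for numbers 1, 2 and 3), same-numbered libraries did not deviate together. In hbg1.L, LOC108702027, hba1.S and hbg2-a, however, number 2 was the highest library of both groups. With the replicate block hbg1.L stayed at -1.17, and its standard error went from 0.36 to 0.19 (limma p of 0.000616, adjusted p of 0.801). Under the block the limma p was 0.000584 for LOC108702027, 0.00155 for hbg2-a and 0.0121 for hba1.S, with the same adjusted p. The labels do not say whether the numbers pair anything.

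Of the 20 rows that could be fitted in all 12 settings, 14 kept their direction. The rows alas2.S, hbg2.S and LOC108703098 kept theirs in the 9 settings in which they passed the filter. The other 6 had small differences and reversed in some. MGC130918 came to -0.0097 with the pseudocount of 0.1 and -0.026 with median-of-ratios scaling. With a library left out it ran from -0.21 to 0.34, hba2.L from -0.20 to 0.37, hba4.L from -0.45 to 0.17, LOC108701133 from -0.16 to 0.10, LOC108701509 from -0.014 to 0.19 and cygb.L from -0.23 to 0.017. Median-of-ratios scaling shifted the median of all rows by -0.04. Depth limits the weak haemoglobin rows most, many at 0 to 10 reads per library, and atrazine replicate 3 more than the other libraries.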
